A study of Mus musculus with 8 samples.

Results

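The 32 genes described here are the folding machinery of the endoplasmic reticulum and the unfolded protein response that adjusts it. The members were taken as a given list of names, with no measured value in the rule, although the list was proposed with earlier results of these data known. It holds 9 lumenal chaperones and their partners (Hspa5, Hsp90b1, Hyou1, Dnajb9, Dnajb11, Dnajc3, Sdf2l1, Creld2 and Manf), 2 lectin chaperones (Calr and Canx) and 4 protein disulfide isomerases (Pdia3, Pdia4, Pdia6 and P4hb). It also holds 5 stress sensors and transcription factors (Xbp1, Atf6, Atf6b, Ern1 and Eif2ak3), 7 genes of endoplasmic reticulum-associated degradation (Herpud1, Sel1l, Syvn1, Edem1, Derl1, Derl2 and Derl3) and 5 translocon genes (Sec61a1, Sec61b, Ssr1, Ssr2 and Ssr3). All 32 were found among the 25690 genes of the deposited table, and all 32 were among the 10250 genes that reached a mean of 1 FPKM (fragment numbers normalised for transcript length and library total, the unit inferred from the deposited values) over the 8 libraries.

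The libraries were made from total RNA of mouse liver, 4 from wildtype controls (numbers 1, 3, 10 and 12 in their titles) and 4 from animals with a hepatic Foxo1 knockout (numbers 3, 9, 10 and 11). Age, sex, strain, diet and the promoter that drove the deletion are not given in the labels. Nothing in the labels says that each library is a separate animal, and a p-value here therefore reflects only how far these libraries spread. The product of Foxo1 is a forkhead protein that insulin excludes from the nucleus through AKT, and the comparison asks how liver transcripts differ in its absence.

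Proteins bound for secretion enter the endoplasmic reticulum through the translocon, fold with the help of chaperones and disulfide isomerases, and are sent to the proteasome by endoplasmic reticulum-associated degradation when folding fails. Unfolded proteins draw the chaperone BiP (Hspa5) away from the sensors IRE1 (Ern1), PERK (Eif2ak3) and ATF6, which then raise chaperone and degradation genes through the transcription factors XBP1, ATF4 and cleaved ATF6. Hepatocytes secrete most plasma proteins and so carry a large folding capacity.

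Many genes of this response carry the endoplasmic reticulum stress element (ERSE) near their start site, which ATF6 and XBP1 are known to use together with the CCAAT-binding factor NF-Y. RefSeq promoters on GRCm38.p6, from 250 bases before to 50 bases after each start site, were matched by symbol for 26 of the 32 genes. There was no entry for Hyou1, Manf, Atf6, Derl1, Sec61a1 and Ssr2. The ERSE, searched on both strands as CCAAT, then 9 bases of any kind, then CCACG, was found in 9 of the 26 promoters (34.6%), against 0.137% of 27025 gene symbols with a promoter of the same window. Its relative ERSE-II, searched on both strands as ATTGG, then 1 base of any kind, then CCACG, was found in 2 of the 26 (7.69%), against 0.0444% of all symbols. The 2 motifs do not overlap at these sites, and no promoter of the list held both. The sites of 6 members whose expression the results below turn on are shown 5′ to 3′ on the strand that carries the motif, with the fixed letters of the motif in capitals.
Hspa5: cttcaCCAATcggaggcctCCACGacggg
Hsp90b1, distal site: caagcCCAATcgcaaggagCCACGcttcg
Hsp90b1, proximal site: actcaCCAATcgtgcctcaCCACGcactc
Creld2: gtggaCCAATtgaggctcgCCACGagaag
Syvn1: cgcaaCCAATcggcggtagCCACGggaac
Dnajb11, ERSE-II: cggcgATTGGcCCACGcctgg
Herpud1, ERSE-II: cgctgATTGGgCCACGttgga
The first base of the Hspa5 site lies 65 bases upstream of the start site, that of the Syvn1 site 44 bases upstream and that of the Herpud1 site 52 bases upstream. Hsp90b1 is the single member with a pair of sites, whose ends farthest from the gene lie 212 and 107 bases upstream. The other members with an ERSE were Dnajc3, Calr, Canx, Pdia6 and Derl3.

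Longer stretches are shown for Syvn1 and Creld2, which were among the members farthest above wildtype in knockout library 9, described below. The 120 bases directly upstream of Syvn1 (chr19:6046456-6046575, GRCm38.p6, plus strand) hold the ERSE close to the start site, in capitals.
Syvn1 upstream: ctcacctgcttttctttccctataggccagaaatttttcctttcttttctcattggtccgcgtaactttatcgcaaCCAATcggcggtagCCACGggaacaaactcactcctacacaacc
The 150 bases directly upstream of Creld2 (chr15:88819496-88819645, GRCm38.p6, plus strand) hold the element on the opposite strand, so that its fixed letters, in capitals, read in reverse complement.
Creld2 upstream: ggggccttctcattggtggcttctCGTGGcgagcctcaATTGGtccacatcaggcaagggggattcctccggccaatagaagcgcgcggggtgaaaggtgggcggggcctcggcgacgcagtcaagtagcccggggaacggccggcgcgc
Neither TGACGTGG, the core bound by XBP1, nor GTAAACA, the core bound by FoxO and other forkhead proteins, was found in any of the 26 promoters on either strand. These occur in 0.714% and 4.05% of all symbols with a promoter of this window. A match is a description of the letters, and the lack of one says only that these letters are not in this window.

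In the libraries as a whole, estimated depth ran from 26.8 M to 34.9 M fragments, an estimate from the FPKM of single fragments that carries no interval. Foxo1 lay between 3.01 and 3.81 FPKM in wildtype and between 0.212 and 0.375 in knockout liver. All 10 hepatocyte markers examined were listed above 1 FPKM in every library, except that Alb was listed at 0 in knockout 10, which can be a failed estimate. The knockout libraries were not alike: Saa1, an acute phase gene of hepatocytes, was 28413 FPKM in knockout 3 and 33012 in knockout 11 but 573 in knockout 9 and 266 in knockout 10, with 78.3 to 195 across wildtype. Lcn2, another acute phase gene, showed the same split, with 902 FPKM in knockout 3, 565 in knockout 11, 27.0 in knockout 9, 9.06 in knockout 10 and 3.84 to 6.96 across wildtype. The summed level of 10 neutrophil and lymphocyte markers was 150 FPKM in knockout 11 and 3.98 in knockout 9, and spanned 2.73 to 6.0 in wildtype.

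No member passed the test between knockout and wildtype. With limma on log2(FPKM + 1), 0 of 32 members had an adjusted p under 0.05, where 14.4% of all genes tested did (2.70% higher and 11.7% lower in knockout, or 4.10% and 7.66% with the libraries rescaled by median ratios, where Pdia4 and Edem1 passed as higher). At an unadjusted p under 0.05 limma gave 3 of 32 members, Pdia4 and Edem1 higher and Sec61b lower, against 30.5% of all genes. The median log2 change of the members was 0.14, beside -0.08 for all genes, and 23 of 32 were above 0, beside 37.7% of all genes. The knockout and wildtype values did not overlap in 2 members, Edem1 and Sec61b, against 21.3% of all genes. The wide intervals around most changes came with a wide spread among the knockout libraries, so each library is described in turn.

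Knockout 9 had the highest FPKM of the 8 libraries in 27 of 32 members, beside 22.1% of all genes tested. Its values lay above every wildtype library in 28 members (31.3% of all genes), those of knockout 10 in 16 (22.8%), those of knockout 3 in 5 (19.8%) and those of knockout 11 in 2 (14.8%), so the count for knockout 3 was near the share of all genes. Knockout 11 stood at the other end, with the lowest FPKM in 23 of 32 members, beside 23.8% of all genes. The median difference of the members from the wildtype mean, on the log2(FPKM + 1) scale, was 0.58 in knockout 9, 0.16 in knockout 10, -0.06 in knockout 3 and -0.34 in knockout 11, where the median over all genes was 0.00, -0.04, -0.15 and -0.16. With the libraries rescaled by median ratios, knockout 9 was highest in 23 members (17.8% of all genes) and knockout 11 lowest in 11 (11.9% of all genes), and with quantile normalization in 29 (19.7%) and 12 (14.3%). The high position of knockout 9 was therefore seen under each scaling, and the count for knockout 11 fell by more than 1.5 times under both others. These are descriptions of single libraries with no replicate, and no test was made between them.

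**Figure D1:**
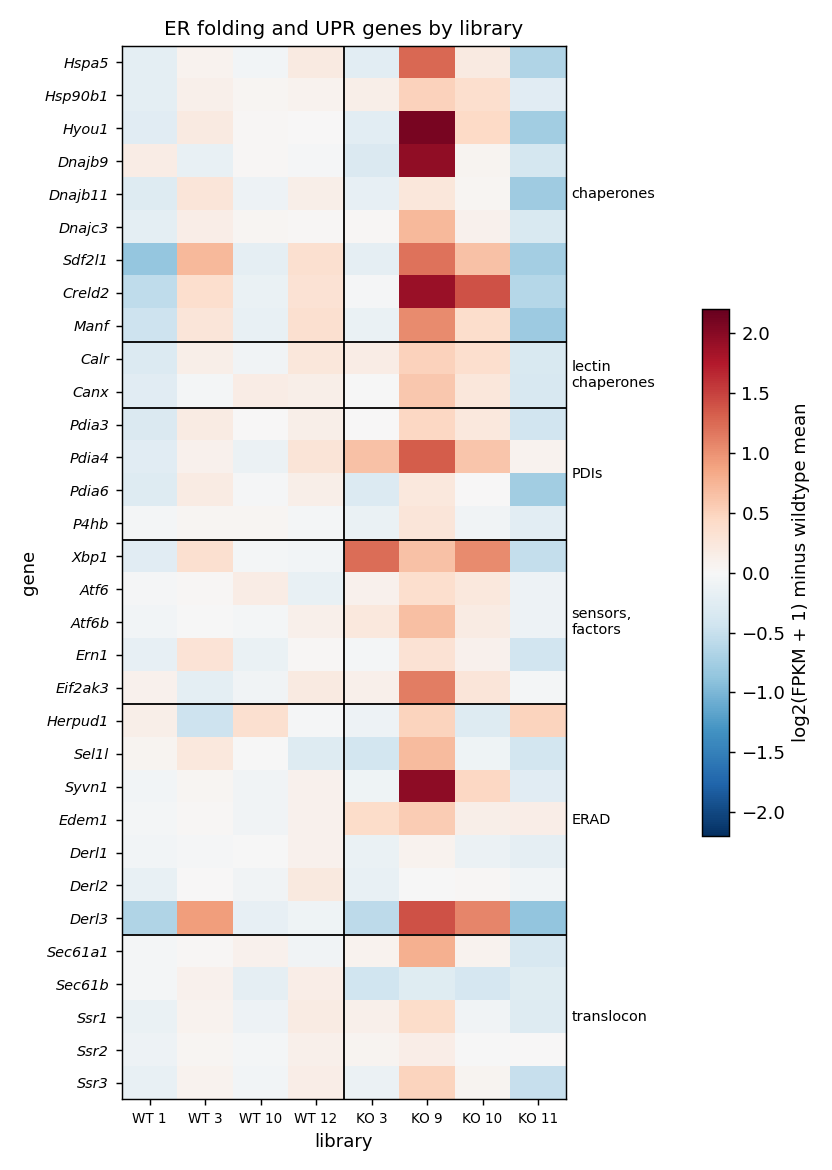
Difference of each member from its wildtype mean on the log2(FPKM + 1) scale, with the 8 libraries as columns (WT, wildtype; KO, knockout; numbers as in the titles), the 32 genes as lines grouped by role, and colour from blue (lower) to red (higher). The column of knockout 9 is red in nearly every line and deepest for Hyou1, Syvn1, Dnajb9 and Creld2, and the column of knockout 11 is mostly blue.

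**Figure D2:**
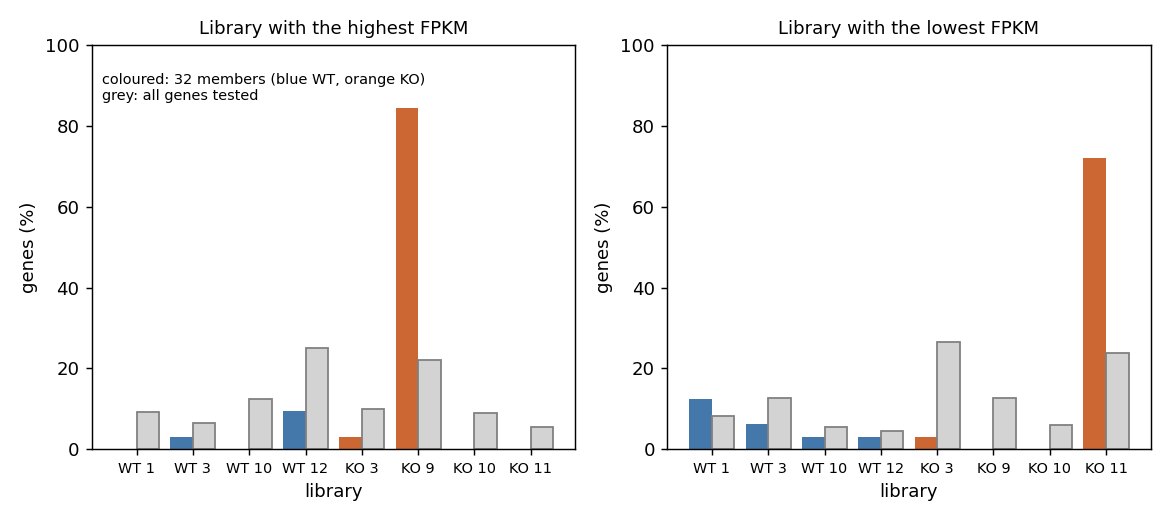
Share of genes (%) for which each library held the highest (left) or the lowest (right) FPKM of the 8, for the 32 members (blue wildtype, orange knockout) and for all 10250 genes tested (grey). Knockout 9 held the highest value for 27 members and knockout 11 the lowest for 23, on the FPKM scale as deposited.

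The lumenal chaperones showed the widest spread. Hspa5 (ENSMUSG00000026864, chromosome 2, 34771970 to 34777547, mm10, plus strand) encodes BiP, the central Hsp70 of the compartment and the best known target of the response. Its FPKM was 132, 163, 147 and 175 in wildtype 1, 3, 10 and 12, and 130, 368, 176 and 96.1 in knockout 3, 9, 10 and 11. Knockout 9 was at 2.39 times the wildtype mean and knockout 11 below every wildtype library, so the groups overlapped. The means were 154 ± 18.7 and 193 ± 122 (SD, n = 4), and the log2 change was 0.14 (SE 0.34, 95% interval -0.64 to 0.91, limma adjusted p = 0.827). Without knockout 9 it was -0.24.

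Hyou1 (ENSMUSG00000032115, chromosome 9, 44379490 to 44392369, mm10, plus strand) encodes GRP170, which exchanges the nucleotide of BiP. It stood at 7.78, 10.9, 9.59 and 9.52 FPKM in the wildtype libraries and at 7.88, 43.3, 13.1 and 5.11 in knockout 3, 9, 10 and 11. Knockout 9 held 3.30 times the highest other library, knockout 10, and the wildtype mean was 9.46 ± 1.29 (SD, n = 4). Its log2 change was 0.39 (SE 0.50, 95% interval -0.75 to 1.52, limma adjusted p = 0.658), and -0.18 without knockout 9.

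Dnajb9 (ENSMUSG00000014905, chromosome 12, 44205559 to 44210326, mm10, minus strand) encodes ERdj4, a J-domain partner of BiP that restrains IRE1. Its FPKM was 22.9, 18.0, 20.7 and 19.8 in wildtype and 16.1, 81.4, 21.1 and 15.4 in knockout 3, 9, 10 and 11. Knockout 9 again stood alone, at 3.56 times the highest other library, which was wildtype 1. The other knockout libraries lay within or below the wildtype range. The log2 change was 0.33 (SE 0.45, limma adjusted p = 0.671), and -0.21 without knockout 9. Gm6568, a gene with a similar sequence, may share reads with Dnajb9.

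Creld2 and Manf encode small proteins that are induced by and secreted under endoplasmic reticulum stress. Creld2 (ENSMUSG00000023272, chromosome 15, 88819646 to 88826683, mm10, plus strand) was at 7.31, 14.9, 10.1 and 14.3 FPKM in wildtype and at 11, 44.9, 31.2 and 6.94 in knockout 3, 9, 10 and 11. Here knockout 10 was high as well, and knockout 11 was the lowest of all. Its log2 change was 0.66 (SE 0.51, limma adjusted p = 0.425). Without knockouts 3 and 11, the libraries with the highest acute phase levels, it was 1.65 (limma adjusted p = 0.0201). That fit kept only knockouts 9 and 10, the libraries where Creld2 was highest. Over all alternatives the adjusted p ran from 0.0201 to 0.730. Manf stood between 94.3 and 164 FPKM in wildtype and at 117, 266, 170 and 73.5 in knockout 3, 9, 10 and 11, the same order of libraries with a smaller spread.

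Hsp90b1 (ENSMUSG00000020048, chromosome 10, 86690209 to 86705509, mm10, minus strand), the Hsp90 paralogue GRP94, was among the most abundant members. It was at 188, 235, 224 and 229 FPKM in wildtype and 238, 310, 282 and 184 in knockout 3, 9, 10 and 11. Knockout 3, 9 and 10 were above all wildtype libraries and knockout 11 was below them. The log2 change was 0.19 (SE 0.16, limma adjusted p = 0.470). The gene shares exon positions with others on either strand, and the reads cannot be told apart without strand information.

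Of the remaining chaperone partners, Sdf2l1, which works in a complex with Dnajb11, was at 42.1 FPKM in knockout 9 and between 9.39 and 29.8 in wildtype. Dnajc3, the BiP co-chaperone p58IPK, was at 39.3 FPKM in knockout 9 and 23.8 ± 2.55 (SD, n = 4) in wildtype. Dnajb11, a co-chaperone that hands clients to BiP, did not share the pattern to the same degree: its highest library was wildtype 3 with 67.8 FPKM, next to 67.0 in knockout 9. Knockout 11 held the lowest value, 32.5 FPKM, and the log2 change was -0.17 (limma adjusted p = 0.648). Of the 9 lumenal genes, 8 were highest in knockout 9, and their median ratio of knockout 9 to the wildtype mean was 2.17.

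**Figure D3:**
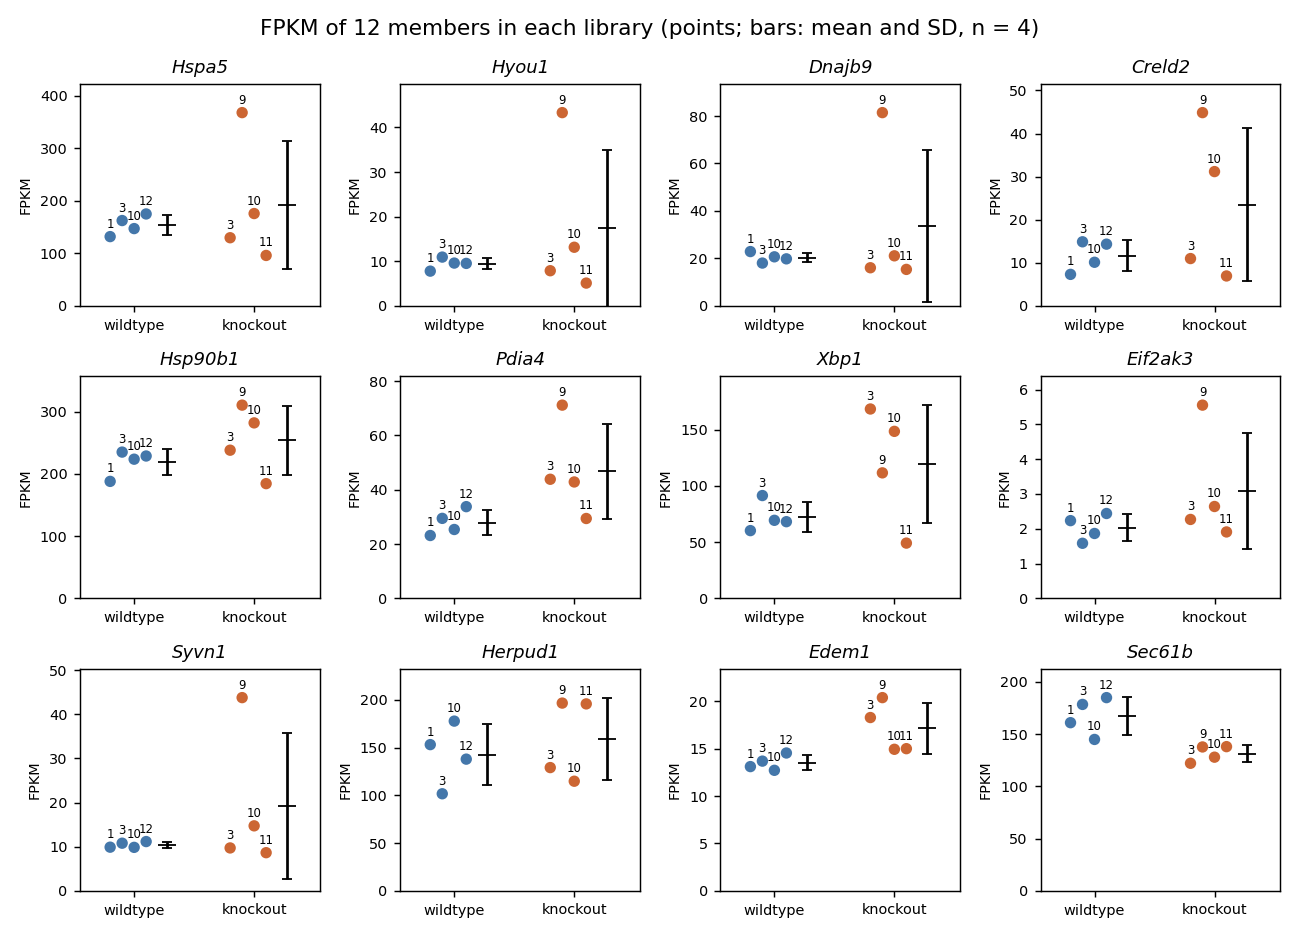
FPKM of 12 members in each library (points with library numbers; blue wildtype, orange knockout), each panel on its own linear axis from 0, with group mean and SD (n = 4) as bars, the Hyou1 knockout bar reaching below 0 and cut there. In Hspa5, Hyou1, Dnajb9, Eif2ak3 and Syvn1 knockout 9 lies at 2.09 times or more of the highest other library, while Xbp1, Herpud1, Edem1 and Sec61b show other orders.

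The lectin chaperones varied less. Calr, which holds newly glycosylated proteins in the lumen, was at 370 FPKM in knockout 9, 335 in knockout 10, 292 in knockout 3 and 205 in knockout 11, where wildtype was 262 ± 43.8 (SD, n = 4). Canx, its membrane-bound counterpart, was at 85.8 FPKM in knockout 9 and 43.9 in knockout 11, with 57.0 ± 7.41 (SD, n = 4) in wildtype. Both had knockout 9 as the highest and knockout 11 as the lowest library. The log2 changes were 0.18 and 0.12 (limma adjusted p = 0.578 and 0.715). Calr has a similar pseudogene, Calr-ps, that may share its reads.

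Among the disulfide isomerases, which form and shuffle disulfide bonds, Pdia4 differed from the rest. Pdia4 (ENSMUSG00000025823, chromosome 6, 47796141 to 47813430, mm10, minus strand), also called ERp72, was at 23.1, 29.5, 25.4 and 33.8 FPKM in wildtype and 43.9, 71.2, 42.9 and 29.4 in knockout 3, 9, 10 and 11. Knockouts 3, 9 and 10 were above every wildtype library and knockout 11 lay within their range. The means were 27.9 ± 4.69 and 46.8 ± 17.5 (SD, n = 4), and the log2 change of 0.67 (SE 0.23, 95% interval 0.14 to 1.20) did not pass (limma adjusted p = 0.0875). It passed under some alternatives, with adjusted p from 0.0293 to 0.204 over all of them, and the log2 change without knockout 9 was 0.45.

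Pdia3, Pdia6 and P4hb stayed close to wildtype in the mean. Pdia3, the partner of the lectin chaperones, had a log2 change of 0.07 and Pdia6 one of -0.21 (limma adjusted p = 0.852 and 0.544). P4hb, the archetypal protein disulfide isomerase, had the highest level per length of the whole list, with 486 ± 17.7 FPKM in wildtype and 475 ± 76.6 in knockout liver (SD, n = 4). Its knockout libraries were at 439, 586, 462 and 413 FPKM for 3, 9, 10 and 11, so that knockout 9 was at 1.21 times the wildtype mean. Its log2 change was -0.05 (95% interval -0.31 to 0.22, limma adjusted p = 0.833).

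Of the sensors and transcription factors, Xbp1 had its own order of libraries. Xbp1 (ENSMUSG00000020484, chromosome 11, 5520659 to 5525893, mm10, plus strand) encodes the factor whose mRNA IRE1 splices, and gene-level FPKM do not separate the spliced from the unspliced form. It was at 60.3, 91.5, 69.4 and 68.2 FPKM in wildtype and 168, 112, 149 and 49.2 in knockout 3, 9, 10 and 11. Knockout 3 was the highest library here, and knockout 11 the lowest. The means were 72.3 ± 13.4 and 119 ± 52.4 (SD, n = 4), with a log2 change of 0.59 (SE 0.34, limma adjusted p = 0.274). Without knockout 11 it was 0.97 (limma adjusted p = 0.0136), and over all alternatives the adjusted p ran from 0.0136 to 0.533.

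Eif2ak3 (ENSMUSG00000031668, chromosome 6, 70844515 to 70905245, mm10, plus strand), the gene of the sensor kinase PERK, was low in level but showed the order of the chaperones. It was at 2.23, 1.58, 1.86 and 2.44 FPKM in wildtype and 2.27, 5.55, 2.64 and 1.91 in knockout 3, 9, 10 and 11. Knockout 9 held 2.1 times the highest other library. Its log2 change was 0.37 (limma adjusted p = 0.327), and 0.11 without knockout 9. The other sensors varied less: in knockout 9 Atf6 was at 6.17, Atf6b at 8.13 and Ern1 at 11.3 FPKM, where wildtype was 4.54 ± 0.537, 4.81 ± 0.310 and 8.95 ± 1.55 (SD, n = 4).

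In the degradation group, Syvn1 (ENSMUSG00000024807, chromosome 19, 6046576 to 6053712, mm10, plus strand) encodes HRD1, the ubiquitin ligase at the centre of the retrotranslocation complex. It was at 9.89, 10.8, 9.85 and 11.2 FPKM in wildtype and 9.72, 43.8, 14.7 and 8.64 in knockout 3, 9, 10 and 11. Knockout 9 was at 4.20 times a wildtype mean whose SD was only 0.657, knockout 10 was above all wildtype libraries, and knockouts 3 and 11 were below them. The log2 change was 0.53 (SE 0.41, 95% interval -0.40 to 1.45, limma adjusted p = 0.433) and 0.04 without knockout 9. Mrpl49 overlaps the end of Syvn1 on the other strand, and stood at 13.8 FPKM in knockout 9 and between 13.8 and 17.2 in wildtype. Sel1l, the adaptor of HRD1, was at 47.5 FPKM in knockout 9 and 29.1 ± 4.38 (SD, n = 4) in wildtype.

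Edem1 (ENSMUSG00000030104, chromosome 6, 108828641 to 108859356, mm10, plus strand), which helps to mark misfolded glycoproteins for degradation by trimming their mannose, was more even across the knockout libraries. It was at 13.1, 13.7, 12.7 and 14.5 FPKM in wildtype and 18.3, 20.4, 14.9 and 15.0 in knockout 3, 9, 10 and 11. Every knockout library was above every wildtype library, though knockouts 10 and 11 only narrowly. The log2 change of 0.31 (SE 0.11, 95% interval 0.06 to 0.57) was not called (limma adjusted p = 0.0980), and this value ran from 0.0292 to 0.213 over the alternatives.

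Herpud1, a membrane component of the degradation complex, did not follow the common order: knockouts 9 and 11 were at 197 and 196 FPKM, knockouts 3 and 10 at 129 and 115, and wildtype spanned 102 to 178. It was thus one of few members in which knockout 11 was high. The derlins, which form the channel of this pathway, split. Derl1 and Derl2 stayed near wildtype, with log2 changes of -0.10 and -0.05 (limma adjusted p = 0.493 and 0.762). Derl3 was scarce and variable in both groups, from 0.323 to 2.95 FPKM in wildtype, with 0.394, 4.52, 3.41 and 0.140 in knockout 3, 9, 10 and 11.

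Among the translocon genes, Sec61b stood out in the other direction. Sec61b (ENSMUSG00000053317, chromosome 4, 47474658 to 47483242, mm10, plus strand) encodes the beta subunit of the channel. It was at 161, 178, 145 and 185 FPKM in wildtype and 122, 138, 128 and 138 in knockout 3, 9, 10 and 11. All knockout libraries were below all wildtype libraries and close to each other, and knockout 9 was not high. The means were 167 ± 18.0 and 131 ± 7.80 (SD, n = 4), and the log2 change of -0.34 (SE 0.10, 95% interval -0.57 to -0.11) just missed the threshold (limma adjusted p = 0.0522). The direction depended on the scale: with the trend of all genes along transcript length removed, the change was 0.02 (limma adjusted p = 0.906), and the transcript of Sec61b is short.

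Sec61a1, the pore-forming subunit, was instead highest in knockout 9 at 41.4 FPKM and lowest in knockout 11 at 18.2, with 23.6 ± 1.39 (SD, n = 4) in wildtype. Knockouts 3 and 10, at 24.9 and 24.8 FPKM, lay within the wildtype range. The signal sequence receptor genes, whose proteins assist the translocon, changed little in the mean, with log2 changes of 0.04 for Ssr1, 0.06 for Ssr2 and -0.02 for Ssr3. Within the knockout group Ssr3 ran from 34.3 FPKM in knockout 11 to 69.3 in knockout 9, and Ssr2 only from 58.5 to 65.3. Reads of Derl1 and Sec61a1 may be shared with the similar gene models Gm35638 and Gm44170, and Manf, Pdia3, Pdia4, Pdia6, Eif2ak3, Derl2, Sec61a1 and Ssr2 share exon positions with other genes. In bulk liver, fewer cells of a type and less RNA per cell cannot be told apart for any of these genes.

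**Figure D4:**
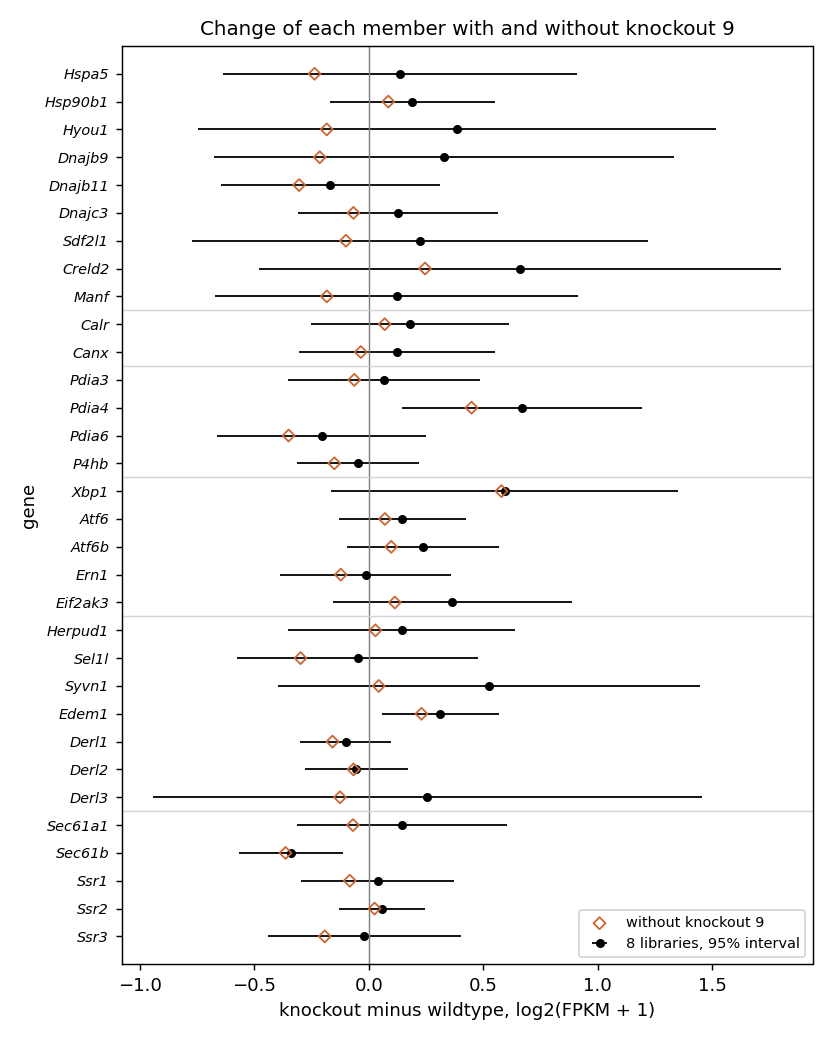
Log2 change of each member, knockout minus wildtype on the log2(FPKM + 1) scale, with its 95% interval from limma over 8 libraries (black) and the value without knockout 9 (orange diamonds); grey lines separate the roles. The intervals of Pdia4, Edem1 and Sec61b lie clear of 0 before adjustment, and the diamonds of Hspa5, Hyou1 and Dnajb9 lie on the other side of 0 from the black points.

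The size of the difference in knockout 9 varied widely among the members. The ratio of knockout 9 to the wildtype mean had a median of 1.51 over the 32 members and ran from 0.823 for Sec61b to 4.58 for Hyou1. Knockout 9 reached at least 1.5 times the highest other library, a limit chosen after its values were seen, in 8 of 32 members and in 128 genes in all (1.25%). In no other library did a member reach that limit. At 2 times or more there were 5 members (Dnajb9, Hyou1, Syvn1, Eif2ak3 and Hspa5) among 26 genes (0.254%). The count at the lower limit was 6 with median-ratio scaling and 10 with quantile normalization.

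Other genes at 2 times or more, picked out after their values were seen, included Hspa13, a further Hsp70 of the compartment, at 11.6 FPKM in knockout 9 and 4.49 in the next library. Wfs1, which encodes an endoplasmic reticulum membrane protein, was at 3.47 and 1.56 FPKM. Creb3l2, the gene of a transcription factor that is cleaved in the way of ATF6, was at 5.28 and 2.55, and Sec23b, a coat protein of the export vesicles, was at 24.4 and 11.4. Fgf21, a secreted hormone of the liver, was at 8.54 FPKM in knockout 9 and at most 2.28 elsewhere, and its difference between the groups was not called (limma adjusted p = 0.750). Hspa1a, a cytosolic Hsp70 that responds to heat shock, was also there with 3.97 and 1.93 FPKM. These were a choice from the genes at this limit. The others outside the list were Arfgap3, Foxn3, Nfxl1, Tmem39a, Mup5, Gfpt1, Alg2, Tspyl2, Smad7, Atxn1, Cks1b, Csad, Tsc22d1, Nol8 and Gm27855. Gm27855 ranked first only because its highest other value was 2.1e-22 FPKM, beside 9.93 in knockout 9.

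Members with and without an exact match to the promoter elements in this window had similar levels in knockout 9. The part of the elements in these levels was not tested. The median ratio of knockout 9 to the wildtype mean was 1.51 in the 11 members with an ERSE or ERSE-II, 1.51 in the 15 whose window held neither and 1.56 in the 6 without a promoter entry. Knockout 9 was the highest library in 10 of the 11, 12 of the 15 and 5 of the 6. Syvn1 and Creld2, with the element, and Dnajb9 and Eif2ak3, without it in this window, were all far above wildtype there, at 4.20, 3.85, 4.0 and 2.74 times its mean. Outside the list, 38 symbols had an ERSE or ERSE-II, 14 of them were tested, and 1 of the 14 was highest in knockout 9, with a median ratio of 0.966. The like-named genes Xlr3a, Xlr3b and Xlr3c were counted separately among the 14. Over all genes tested with a promoter entry, 22.5% were highest in knockout 9 and the median ratio was 0.999.

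Cell type markers were read in the same libraries. Of 10 plasma cell and B cell markers 8 were in the table, 7 of these were under 1 FPKM in every library, and their sum was 1.96 in knockout 9, 1.98 to 2.47 in wildtype and 1.46 to 3.15 in knockout liver. Of 10 pancreatic acinar markers Cela3b, Cpa1, Cpb1 and Clps were at 0 in every library, and the sum was 38.6 FPKM in knockout 9 and 53.3 to 67.7 in wildtype, nearly all of it from Cela1, which fell in knockout liver (log2 change -0.73, limma adjusted p = 0.00985). Kupffer cell markers summed to 110 FPKM in knockout 9 and 94.3 to 125 in wildtype. The plasma cell and B cell sum of knockout 9 was nearly equal to the lowest wildtype sum, at levels near the floor. The acinar sum was 31.3 to 45.8 FPKM over the knockout libraries, so all of them lay below wildtype, not knockout 9 alone. The Kupffer cell sum of knockout 9 lay within the wildtype range.

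Sinusoidal endothelial markers summed to 36.8 FPKM in knockout 9, 36.8 to 62.4 in knockout liver and 63.0 to 81.4 in wildtype. Of this list Stab1 and Fcgr2b fell (log2 change -1.02 and -0.59, limma adjusted p = 0.0148 and 0.0130), calls lost under 2 and 1 of 20 alternatives. Stellate cell and fibroblast markers summed to 65.1 FPKM in knockout 9, 28.1 to 65.1 in knockout liver and 53.2 to 63.9 in wildtype. Of these 8 markers 4 were highest in knockout 9, beside 22.1% of all genes tested. However, 3 of the 8 were under 1 FPKM in every library, and only 4 passed the filter. Cholangiocyte markers summed to 20.7 FPKM in knockout 9, 15.6 to 24.7 in knockout liver and 11.3 to 16.7 in wildtype. Of these 6 markers 5 were under 1 FPKM in every library, so the sum came nearly all from 1 gene. Hepatocyte markers summed to 37836 FPKM in knockout 9, 18853 to 48681 in knockout liver and 42895 to 49058 in wildtype. Alb alone was 20877 FPKM in knockout 9, and the low end of knockout liver was knockout 10, where Alb was listed at 0. Of these markers Cyp2e1 fell and Hnf4a rose (log2 change -0.60 and 0.43, limma adjusted p = 0.0318 and 0.0494). Their calls were lost under 9 and 12 of 20 alternatives. The part of these shifts in the level of the members was not tested.

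Genes of the PERK and ATF4 arm, which are not among the members, showed calls in both directions. The list holds Atf4 itself, Eif2s1 and Ppp1r15b as well as genes downstream of ATF4. Of 13 genes listed 11 were tested, and 2 rose, 3 fell and 6 did not pass, with a median log2 change of -0.18. Over all genes tested 2.7% rose and 11.7% fell. Trib3, a pseudokinase that restrains AKT, was at 8.98, 4.35, 5.83 and 14.3 FPKM in wildtype and 1.26, 2.0, 0.951 and 1.78 in knockout 3, 9, 10 and 11. All knockout libraries were below all wildtype libraries, and the log2 change was -1.81 (SE 0.30, limma adjusted p = 0.00621). Asns, the asparagine synthetase gene, went the other way, from 0.729, 1.17, 1.31 and 2.31 FPKM in wildtype to 9.50, 5.21, 2.61 and 5.49 in knockout 3, 9, 10 and 11 (log2 change 1.43, limma adjusted p = 0.0150).

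Chac1, which degrades glutathione, rose by 0.77 on the log2 scale (limma adjusted p = 0.0242), and no knockout library was below 1.68 FPKM or wildtype library above 1.43. Atf4, the factor of the arm, was at 71.4, 73.8, 68.0 and 56.9 FPKM in wildtype and 44.7, 62.0, 45.4 and 38.2 in knockout 3, 9, 10 and 11. It fell by 0.51 on the log2 scale (limma adjusted p = 0.0491), with knockout 9 inside the wildtype range, and the call was lost under 13 of 20 alternatives, whose adjusted p ran from 0.0130 to 0.225. Ddit3, the gene of CHOP, was at 8.03 ± 1.21 and 5.85 ± 1.63 FPKM (SD, n = 4) in wildtype and knockout liver, a difference short of the threshold (limma adjusted p = 0.141). Ppp1r15a, the GADD34 gene that reverses the PERK signal, was named after its values were seen and fell by 0.78 (limma adjusted p = 0.0247). None of these 6 genes was highest of all libraries in knockout 9, where Eif2ak3 and 8 of the 9 lumenal chaperone genes were highest. Trib3 and Ppp1r15a lay below wildtype in every knockout library, so neither could be highest there. Among the knockout libraries alone, knockout 9 was highest for Atf4, Ddit3, Trib3 and Ppp1r15a, and knockout 3 for Asns and Chac1. Of the 11 genes tested, 2 were highest of all libraries in knockout 9, Atf5 and Ppp1r15b, beside 22.1% of all genes. Sesn2 and Psat1, which lay below the filter and were not tested, were highest there too. Atf5, Ppp1r15b, Sesn2 and Psat1 were named after their values were seen.

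**Figure D5:**
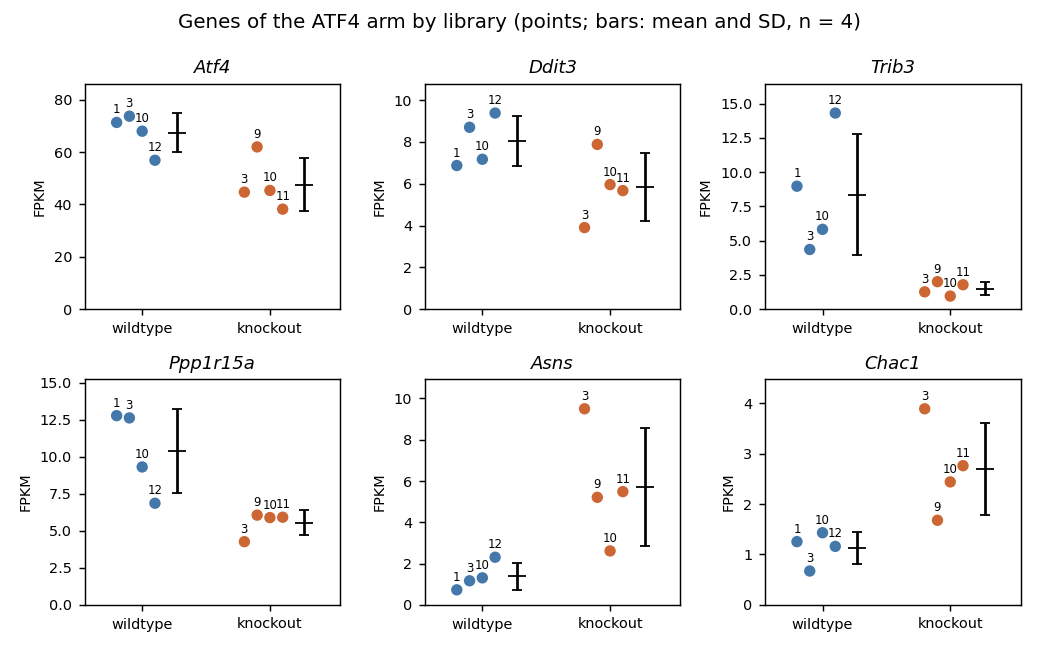
FPKM of 6 genes of the ATF4 arm in each library (points with library numbers; blue wildtype, orange knockout), each panel on its own linear axis from 0, with group mean and SD (n = 4) as bars. Trib3 and Ppp1r15a lie lower and Asns and Chac1 higher in all 4 knockout libraries, and knockout 9 is not the highest of all libraries in any panel. Among the knockout libraries it is the highest for Atf4, Ddit3, Trib3 and Ppp1r15a.

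The neighbouring groups of secretory genes held a few calls each, where 2.7% of all genes tested were called higher and 11.7% lower. Of 20 other chaperone and glycan processing genes, Dnajc1 and Fkbp11 rose and Fkbp2 and Sdf2 fell, with a median log2 change of 0.04. The largest of these were Fkbp11 at 0.59 and Fkbp2 at -0.50 (limma adjusted p = 0.0356 and 0.0106), both prolyl isomerases. Of 14 other disulfide isomerases and oxidases, Pdia5 and Qsox1 rose (log2 change 0.51 and 0.93, limma adjusted p = 0.00979 and 0.0156) and none fell, with a median of 0.10. Pdia5 was at 27.7 ± 1.78 FPKM in wildtype and 40.0 ± 3.93 in knockout liver (SD, n = 4), and its highest library was knockout 3. Of 18 other degradation genes, Edem2, a relative of Edem1, and Faf2 rose (log2 change 0.40 and 0.36, limma adjusted p = 0.0318 and 0.0365) and none fell, with a median of 0.14. Of 5 tested membrane-bound transcription factors and their proteases none passed with limma (1 at an unadjusted p under 0.05), with a median of 0.15.

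Of 19 other genes of translocation, signal recognition and signal peptidase, 5 fell and none rose, with a median of -0.07. Sec61g, the gamma subunit that sits with Sec61b in the channel, fell from 281 ± 33.9 to 159 ± 17.9 FPKM (SD, n = 4; log2 change -0.82, limma adjusted p = 0.00495), and Srp9 and Srp14, which bind each other in the signal recognition particle, fell by 0.34 and 0.31 (limma adjusted p = 0.0238 and 0.0294). With the trend along transcript length removed Srp14 was at 0.03, on the other side of 0, as Sec61b was. Of 11 oligosaccharyltransferase genes, Rpn2 rose by 0.71 and Ddost by 0.35 and Ost4 fell by 0.33 (limma adjusted p = 0.00613, 0.0465 and 0.0214), with a median of 0.05. The calls of Ddost and Ost4 were lost under 9 and 8 of 20 alternatives, and those of Srp9 and Srp14 under 9 each.

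Of 16 genes of COPII export, Sar1b, the GTPase that starts vesicle budding, fell by 0.45 (limma adjusted p = 0.00985), none rose and the median was 0.07. Of 15 cytosolic and mitochondrial chaperones, Hspe1 fell by 0.49 (limma adjusted p = 0.0348), none rose and the median was 0.19. Of 18 acute phase genes, Lrg1 and Fga rose (log2 change 2.19 and 0.97, limma adjusted p = 0.0147 and 0.0492), none fell and the median was 1.40. Knockout 3 or knockout 11 was the highest library in each of these 18 acute phase genes, as in Saa1 and Lcn2 above, and knockout 9 in 0. Among the members knockout 9 was highest in 27 of 32, and knockout 11 lowest in 23 on the FPKM scale as deposited. The split of the knockout libraries was itself seen in acute phase genes. Whether the order of libraries in the members is linked to it was not tested. Over all of the neighbouring lists 12 genes rose and 13 fell, where 2.7% of all genes tested rose and 11.7% fell. With the libraries rescaled by median ratios 19 rose and 6 fell, where 4.1% of all genes rose and 7.66% fell. Of the 25 genes called without rescaling, 5 (Trib3, Pdia5, Sec61g, Rpn2 and Lrg1) passed under every alternative in which they were tested.

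The comparison of the genotypes depended on which knockout libraries entered. Without knockout 9 the median log2 change of the members was -0.07, beside -0.11 for all genes, 12 of 32 were above 0, beside 33.3% of all genes, and 0 were called, beside 16.1% of all genes (3 members were under 0.05 unadjusted). Without knockouts 3 and 11 the median was 0.41, beside -0.01 for all genes, and 30 of 32 were above 0, beside 48.4%. In that fit 3 members rose (Xbp1, Creld2 and Pdia4; 1.94% of all genes were called higher), and the groups did not overlap in 17 members, beside 35.7% of all genes.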

How the data were processed

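Liver RNA was extracted with Trizol and sequenced after an Illumina library preparation, per the labels' protocols. The deposited values were read as FPKM made by the authors with tools among TopHat2 2.1.0, HTSeq and Cufflinks 2.2.1 on mm10, which the submitters' processing notes name without role or order. The unit was inferred from the values, since the header gives library names only. The strand setting, annotation and read length were not given in the sources used here. No count model was used. FPKM corrects for transcript length and library total, so a few very abundant transcripts can shift all other genes, which the rescaled alternatives address.

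The 10250 genes that averaged 1 FPKM or more were fitted as log2(FPKM + 1) by genotype alone, using limma 3.58.1 (R 4.3.3) and its moderated variances with a mean trend. Tests were two-sided with Benjamini-Hochberg adjustment at 0.05 over all genes, and members were read from that fit. Fold changes on this scale understate low genes. The fit was tested on simulated data. Names, coordinates and lengths came from GENCODE M21 on mm10, and promoters from RefSeq on GRCm38.p6. Similar genes share at least 90% of letters over 300 bases. Libraries were compared for repeats: no pair shared more than 17 identical values among 10250 genes. Depth was estimated from genes with 1 transcript longer than 1500 bases.

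The members, lists and tests were chosen with earlier results of these data known. Named genes are all members, Foxo1, Atf4, Ddit3, Saa1 and Lcn2, and up to 3 called genes with the smallest adjusted p from each list, while Ppp1r15a, Atf5, Ppp1r15b, Sesn2, Psat1, Fkbp11, Mrpl49 and the genes high in knockout 9 were named after their values were seen. Alternatives were another pseudocount, other filters, scalings and variance models, library weights, a replicate block, leaving out libraries, and removed length and GC trends. The scaled counts by library were added after the data were seen. Numbers 3 and 10 occur in both groups, and a planned look at protein ends is not analysed here.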

Additional observations from a re-analysis of the deposited data

Results flagged for a closer look

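Dnajb9 in knockout 9 was the single value set apart among 64 checks, the 32 members in each of the 2 groups of 4 libraries. It stood at 81.4 FPKM, and the other knockout libraries lay between 15.4 and 21.1. The gap to the nearest library was 0.913 of the range of the group, above Dixon's 95% critical value for 4 samples. Chance sets apart about 1 group in 20 by this measure, and Dnajb9 shares sequence with Gm6568. No cause was tested.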

How the results depend on the processing

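Of 637 member values under 20 alternatives, 563 kept direction and side of the threshold, 15 were newly called, 0 lost a call and 59, in 21 members, changed sign without being called. No member had a call to lose, so stability of calls was not tested. The cause of each shift was not tested. With median-ratio scaling 420 genes rose and 785 fell, 2 members rose (Pdia4 and Edem1), the related lists gave 19 and 6, and knockout 11 was lowest in 11 members; P4hb (0.045), Ern1 (0.067), Sel1l (0.039), Derl2 (0.036) and Ssr3 (0.068) turned positive. With quantile normalization 470 rose and 652 fell, 1 member rose (Edem1), the related lists gave 21 and 2, and knockout 11 was lowest in 12 members; Dnajb11 (0.017), Pdia6 (0.0065), P4hb (0.28), Ern1 (0.063), Sel1l (0.10), Derl1 (0.049), Derl2 (0.12) and Ssr3 (0.17) turned positive. With the length trend removed 516 rose and 585 fell, 1 member rose (Ssr2), the related lists gave 19 and 4, and P4hb (0.035), Sec61b (0.019), Ssr3 (0.057) and Srp14 (0.033) turned positive. With the GC trend removed 549 rose, 2 members rose (Pdia4 and Edem1), the related lists gave 19 and 6, and P4hb (0.026), Ern1 (0.074), Sel1l (0.055), Derl2 (0.066) and Ssr3 (0.11) turned positive. Library weights gave 1 member (Pdia4) and 23 related genes that rose, with Ern1 (0.0087) and Derl2 (0.0021) positive. Without a filter the related lists gave 7 and 7, and with a mean of at least 5 FPKM 1 member fell (Sec61b). Without knockouts 3 and 11, 656 genes fell, 3 members rose, 17 did not overlap and 4 related genes fell; Dnajb11 (0.15), Pdia6 (0.12), P4hb (0.099), Ern1 (0.20), Sel1l (0.30), Derl2 (0.0021) and Ssr3 (0.27) turned positive.

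The replicate block used numbers 3 and 10, and same-numbered libraries did not deviate together (correlation -0.0079 and 0.022), so the numbers were not taken to pair them; the block gave 314 higher, 1289 lower and 1 member (Sec61b, lower).

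Leaving out 1 library at a time gave 102 to 360 genes higher and 599 to 1294 lower, the fewest without wildtype 1. It gave 0 to 2 members higher (Xbp1 and Pdia4, without knockout 11), 0 to 1 lower (Sec61b, without wildtype 10), 2 to 6 not overlapping (6 without knockout 11), and 5 to 16 related genes higher and 4 to 17 lower. Members whose sign turned in these fits ranged as follows: Hspa5 from -0.24 to 0.41, Hyou1 from -0.18 to 0.77, Dnajb9 from -0.21 to 0.56, Dnajb11 from -0.30 to 0.036, Dnajc3 from -0.067 to 0.28, Sdf2l1 from -0.10 to 0.55, Manf from -0.18 to 0.43, Canx from -0.035 to 0.28 and Pdia3 from -0.064 to 0.23. P4hb ranged from -0.15 to 0.017, Ern1 from -0.12 to 0.12, Herpud1 from -0.0078 to 0.29, Sel1l from -0.30 to 0.068, Derl2 from -0.11 to 0.020, Derl3 from -0.13 to 0.63, Sec61a1 from -0.069 to 0.31, Ssr1 from -0.083 to 0.15 and Ssr3 from -0.19 to 0.14. Most of the turns to negative came without knockout 9. At these depths the members under 5 FPKM in the mean, Eif2ak3, Atf6 and Derl3, are the least precise.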
